A study of Bos taurus with 8 samples.

Results

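The genes described here are 52 genes of mitosis and the cell cycle, out of 24596 genes counted in cultured bovine cartilage cells. They comprise cyclins and mitotic kinases, spindle, centromere and cytokinesis proteins, and enzymes of DNA replication. The list was chosen by a readout of these same libraries: TTK and SHCBP1 were nearly absent from a single deep zone library. The other members were chosen with results of these libraries known. They include MTFR2 and GEN1, which were as low in the same library. The values of TTK and SHCBP1 in the deep zone are therefore given as a description, without a test. Of the 52 genes, 51 passed the filter on low counts, as did 12857 of all genes, and 49 were tested between the zones. MAD2L1, which encodes a protein of the spindle assembly checkpoint, had 0 counts in all 4 libraries, which allows up to 3 counts, or 0.129 to 0.187 CPM, in a library by counting error alone. These zeros are not read as absence of the transcript, since how reads of MAD2L1 were assigned in the annotation used was not examined.

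The study compared superficial zone chondrocytes (SZCs) with deep zone chondrocytes (DZCs) from the femoropatellar cartilage of calves aged 1 to 2 weeks, with 2 RNA-Seq libraries per zone. The calves were wild type, and no agent distinguished the zones. SZCs came from the outermost slice of each cartilage core and DZCs from the deep slice of the same cores, while the tissue between them was discarded. Both groups were grown for 3 days in DMEM/F12 medium with 10% fetal bovine serum before RNA was taken, so all levels are those of cells in serum culture rather than of cells in cartilage. Biological duplicates were described, but whether the SZC and DZC libraries of the same number came from the same joint is not given in the sources used here.

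A dividing cell copies its DNA in S phase and separates the copies in mitosis. Genes of the G1/S transition, such as those of the MCM helicase, are transcribed under E2F factors before replication. Genes of G2 and mitosis, such as those of cyclin B and the spindle, are transcribed later under the MuvB complex with MYBL2 and FOXM1, and their transcripts are low in cells that have left the cycle. Chondrocytes of mature articular cartilage rarely divide, whereas those of young animals placed in culture with serum can enter the cycle.

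Library totals lay between 19918970 and 21890549 counts. Levels are given as CPM, which are counts scaled by library size and by the trimmed mean of M values (TMM), and intervals of a fold between single libraries are 95% intervals that cover counting error only. DZC replicate 1 stood apart from the other libraries in several measures. It had 14683 genes with at least 1 count, against 15842 to 16058 in the others, and mitochondrial genes took 0.435% of its counts, against 0.806% to 1.08%. Type II collagen, COL2A1, took 24.5% of its counts, against 6.31% to 12.9%, and its TMM factor was 0.735, against 1.08 to 1.14. All 6 superficial zone markers were called higher in SZCs by edgeR's exact test, which called 2.93% of all genes tested in either direction. The paper reports these genes as higher in SZCs from the same libraries, so the calls do not check the zone labels. The quasi-likelihood test of edgeR called 0 genes. PRG4 stood at 3166 and 2024 CPM in the SZC libraries and at 15.3 and 61.5 CPM in DZC replicates 1 and 2.

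The 52 genes together took 19870 and 24814 counts in the SZC libraries, 3911 counts in DZC replicate 1 and 35011 counts in DZC replicate 2. Their summed level was 903 and 1069 CPM in the SZC libraries, 243 CPM in DZC replicate 1 and 1569 CPM in DZC replicate 2. The DZC libraries thus lay on either side of both SZC libraries. All 51 genes past the filter were lowest in DZC replicate 1, where 36.5% of all genes tested were lowest, and 50 of the 51 were highest in DZC replicate 2, where 25.3% of all genes were highest. The exception was PCNA, which was highest in SZC replicate 2. In these bulk samples, fewer dividing cells and less of these transcripts per cell cannot be told apart.

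**Figure D1:**
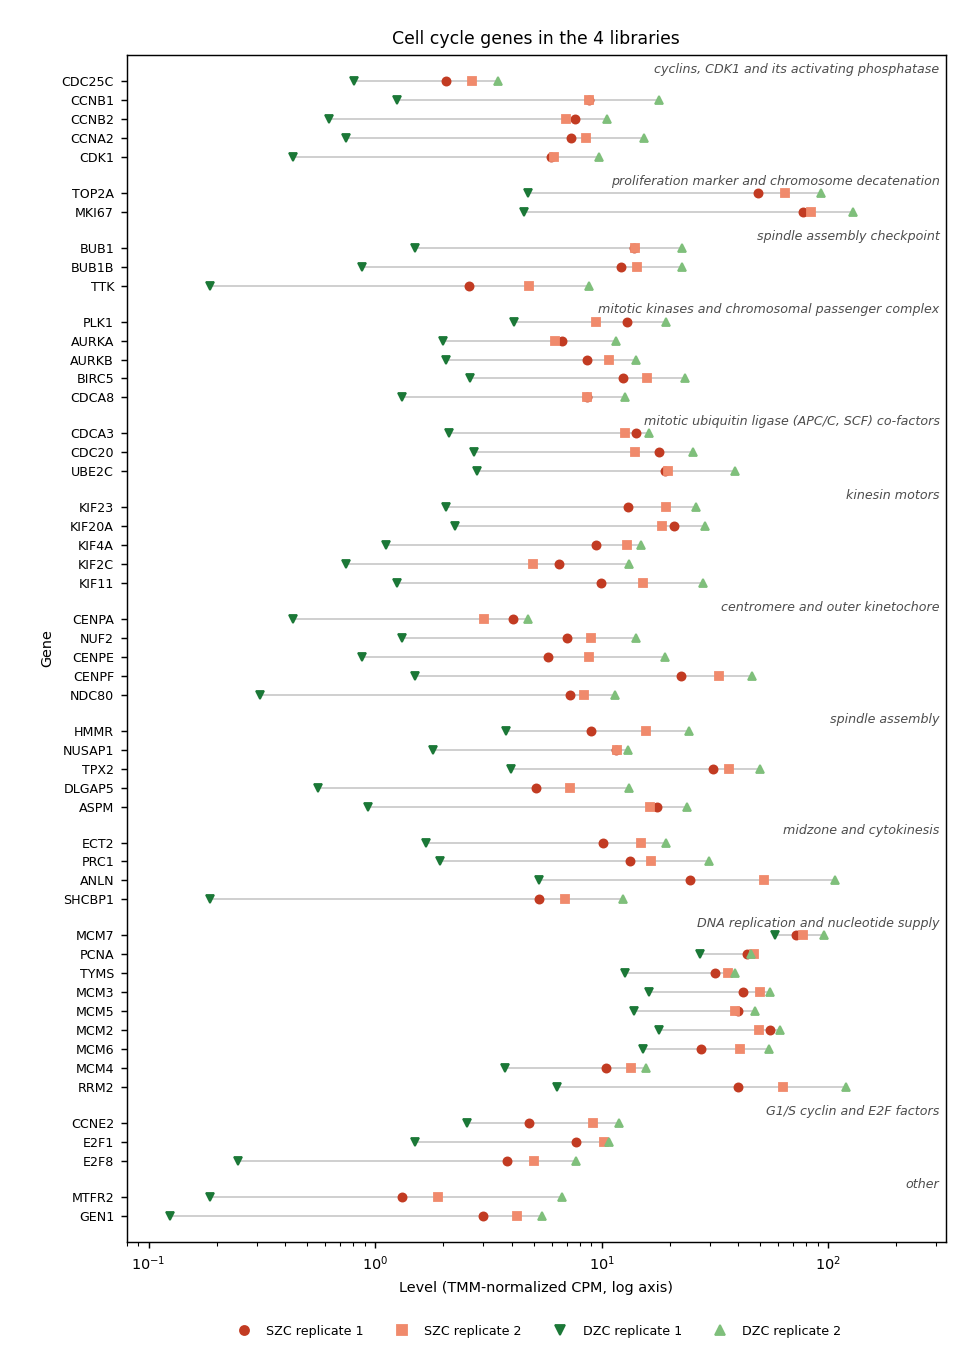
Level of each of the 51 genes past the filter in the 4 libraries, in TMM-normalized CPM on a log axis, 1 symbol per library, with genes grouped by role and ordered within a role by the fold between the DZC libraries. DZC replicate 1 is the leftmost symbol in all 51 rows and DZC replicate 2 the rightmost in all but that of PCNA; the DZC values of TTK and SHCBP1 chose the list.

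The DZC values of 2 genes led to the choice of this list. TTK, a kinase of the spindle assembly checkpoint (ENSBTAG00000005456), had 57 and 111 counts in SZC replicates 1 and 2, 3 counts in DZC replicate 1 and 195 counts in DZC replicate 2. As levels these are 2.59, 4.78, 0.187 and 8.74 CPM. The fold between the DZC libraries was 46.8 (interval 15.8 to 229). SHCBP1, a protein of the midbody in cytokinesis (ENSBTAG00000033441), had 116 and 159 counts in the SZC libraries, 3 counts in DZC replicate 1 and 276 counts in DZC replicate 2, a fold of 66.3 (22.4 to 323) between the DZC libraries. Both genes were thus readily counted in 3 libraries and at the floor of 3 counts in the fourth. Of the other genes on the list, MTFR2 with 3 counts and GEN1 with 2 were as low in DZC replicate 1, and the next were E2F8 with 4 counts and NDC80 with 5. In all, 36 of the 51 genes had fewer than 50 counts in that library, so their folds are imprecise.

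Between the DZC libraries, 49 of the 51 genes were at least 2-fold lower in replicate 1, as were 16.9% of all genes tested. At least 4-fold lower were 44 of them and 6.14% of all genes, and at least 8-fold lower were 34 of them and 2.29% of all genes. This is the contrast that chose TTK and SHCBP1 and it sets 1 library against 1, so it was not tested and nothing is read from these shares. The median fold was 12.8 over the 51 genes, ranging from 1.64 for MCM7 to 66.3 for SHCBP1, and 1.01 over all genes tested. The genes just inside the 2-fold bound were TYMS, at 3.05-fold, and MCM5, MCM2 and MCM3, at 3.43- to 3.44-fold. Outside it were PCNA, at 1.68-fold, and MCM7.

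The cyclins and CDK1, whose complexes drive entry into mitosis, were among the genes with wide folds. CDK1 stood at 6.0 and 6.16 CPM in the SZC libraries, 0.435 CPM in DZC replicate 1 and 9.73 CPM in DZC replicate 2. The fold between the DZC libraries was 22.3 (10.7 to 56.2), and the SZC libraries differed by only 1.03-fold. CCNA2, cyclin A2, and the B-type cyclins CCNB1 and CCNB2 lay between 14.4- and 20.5-fold. CDC25C, the phosphatase that removes inhibitory phosphates from CDK1, had the smallest fold of this group, 4.32, with 2.04, 2.67, 0.809 and 3.5 CPM in SZC replicates 1 and 2 and DZC replicates 1 and 2. MKI67, which encodes the proliferation marker Ki-67 (ENSBTAG00000002444), had 77.4 and 84.3 CPM in the SZC libraries, 4.54 CPM in DZC replicate 1 and 129 CPM in DZC replicate 2, a fold of 28.4 (22.5 to 36.3). TOP2A, the topoisomerase that untangles sister chromatids, had 48.7, 64.7, 4.73 and 93 CPM in the same order. With 73 and 76 counts in DZC replicate 1, MKI67 and TOP2A were less limited by counting there than CDK1, which had 7.

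Among the checkpoint genes counted, BUB1 and BUB1B, whose products hold back anaphase until every chromosome is attached, differed between the DZC libraries by 15.1- and 25.9-fold. BUB1 was at 13.9 and 14.1 CPM in the SZC libraries, 1.49 CPM in DZC replicate 1 and 22.5 CPM in DZC replicate 2. The mitotic kinases and the chromosomal passenger complex had the smallest median fold of the G2 and mitosis groups, 6.88. PLK1, polo-like kinase, had 12.9 and 9.39 CPM in the SZC libraries, 4.11 CPM in DZC replicate 1 and 19.2 CPM in DZC replicate 2, a 4.67-fold difference. CDCA8, borealin of the passenger complex, had 8.63, 8.57, 1.31 and 12.6 CPM, the widest fold of this group at 9.68. AURKA and AURKB, the Aurora kinases, and BIRC5, survivin of the passenger complex, lay between them at 5.83, 6.88 and 8.9. PLK1 also had the lowest ratio of SZC replicate 2 to SZC replicate 1 on the list, 0.725.

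Genes of mitotic protein destruction had the same library lowest and the same library highest. UBE2C, the ubiquitin-conjugating enzyme that works with the anaphase-promoting complex, had 18.9 and 19.5 CPM in the SZC libraries, 2.8 CPM in DZC replicate 1 and 38.8 CPM in DZC replicate 2. CDC20, the activator of that complex, had a fold of 9.27 between the DZC libraries, below the 13.9 of UBE2C. CDCA3, a co-factor of the SCF ubiquitin ligase, had 14.2 and 12.7 CPM in SZCs and 2.12 and 16.1 CPM in DZC replicates 1 and 2, a fold of 7.61. All 3 genes were lowest in DZC replicate 1 by a wide margin.

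The kinesin motors showed folds from 12.7 to 22.5. KIF11, the motor that pushes the spindle poles apart, had 9.95 and 15.2 CPM in the SZC libraries, 1.24 CPM in DZC replicate 1 and 28 CPM in DZC replicate 2. KIF23, of the central spindle, had 13, 19.3, 2.05 and 26 CPM. KIF20A and KIF4A, of the anaphase midzone, and KIF2C, which removes tubulin from microtubule ends, lay between them at 12.8, 13.2 and 17.7. At the centromere and outer kinetochore, NDC80, which binds the spindle microtubules, had 7.22 and 8.36 CPM in the SZC libraries, 0.311 CPM in DZC replicate 1 and 11.5 CPM in DZC replicate 2. Its fold of 36.9 (15.6 to 115) rests on 5 counts. CENPA, the histone H3 variant of the centromere, had the smallest fold there, 10.8, with 4.04, 3.02, 0.435 and 4.71 CPM. NUF2, the partner of NDC80, stood at 10.8-fold, and the large kinetochore proteins CENPE and CENPF at 21.9- and 30.7-fold.

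Of the spindle assembly genes, ASPM, a spindle pole protein, had 17.4 and 16.3 CPM in the SZC libraries, 0.933 CPM in DZC replicate 1 and 23.7 CPM in DZC replicate 2, a fold of 25.4. HMMR, which is both a hyaluronan receptor and a spindle protein, had 8.95 and 15.7 CPM in SZCs and 3.79 and 24.2 CPM in DZC replicates 1 and 2, the smallest fold of this group at 6.38. TPX2, which activates Aurora A, and NUSAP1 and DLGAP5, which stabilise spindle microtubules, differed by 12.6-, 7.21- and 23.5-fold. In cytokinesis, ANLN, anillin of the contractile ring, had 24.5 and 52.2 CPM in SZC replicates 1 and 2, 5.29 CPM in DZC replicate 1 and 107 CPM in DZC replicate 2. It was also the gene that differed most between the SZC libraries. ECT2, the exchange factor that starts furrowing, had 10.2, 14.9, 1.68 and 19.2 CPM, a fold of 11.4, and PRC1, which bundles midzone microtubules, had a fold of 15.4.

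The genes of DNA replication differed least between the DZC libraries, with a median fold of 3.43 over 9 genes. MCM7, of the MCM helicase, had 71.9 and 77.5 CPM in the SZC libraries, 58.4 CPM in DZC replicate 1 and 95.6 CPM in DZC replicate 2. PCNA, the sliding clamp of the replication fork, had 43.6, 46.8, 27.1 and 45.7 CPM. For both genes DZC replicate 1 was lowest, but by far less than for the mitotic genes. MCM2, MCM3, MCM4, MCM5 and MCM6, the other helicase subunits, lay between 3.43- and 4.2-fold, and TYMS, thymidylate synthase, at 3.05-fold. RRM2, the regulated subunit of ribonucleotide reductase, was the exception in this group, with 40.1 and 63.2 CPM in the SZC libraries, 6.35 CPM in DZC replicate 1 and 119 CPM in DZC replicate 2, a fold of 18.8. Of the G1/S regulators, CCNE2, cyclin E2, had 4.77, 9.13, 2.55 and 12 CPM, a fold of 4.69. E2F8, an atypical repressor of the E2F family, had 3.82 and 5.0 CPM in SZCs and 0.249 and 7.71 CPM in DZC replicates 1 and 2, a fold of 31 (11.9 to 115), and E2F1, an activator, had a fold of 7.18.

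By phase, the median fold was 14.4 over the 37 genes of G2 and mitosis and 3.52 over the 12 genes of G1/S and replication. The 37 genes include TTK and SHCBP1, whose DZC values chose the list, so these values are descriptions. As a share of the mean SZC level, DZC replicate 1 kept a median of 12.3% of the former and 35.3% of the latter. The lowest share was that of SHCBP1, 3.08%, and the highest that of MCM7, 78.2%. MTFR2, a regulator of mitochondrial fission, and GEN1, a nuclease that resolves joined DNA strands in recombination, fell in neither class. MTFR2 had 1.32 and 1.9 CPM in the SZC libraries, 0.187 CPM in DZC replicate 1 and 6.68 CPM in DZC replicate 2, a fold of 35.8 (12 to 175). GEN1 had 3.0, 4.22, 0.124 and 5.47 CPM, a fold of 44 (11.9 to 367).

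**Figure D2:**
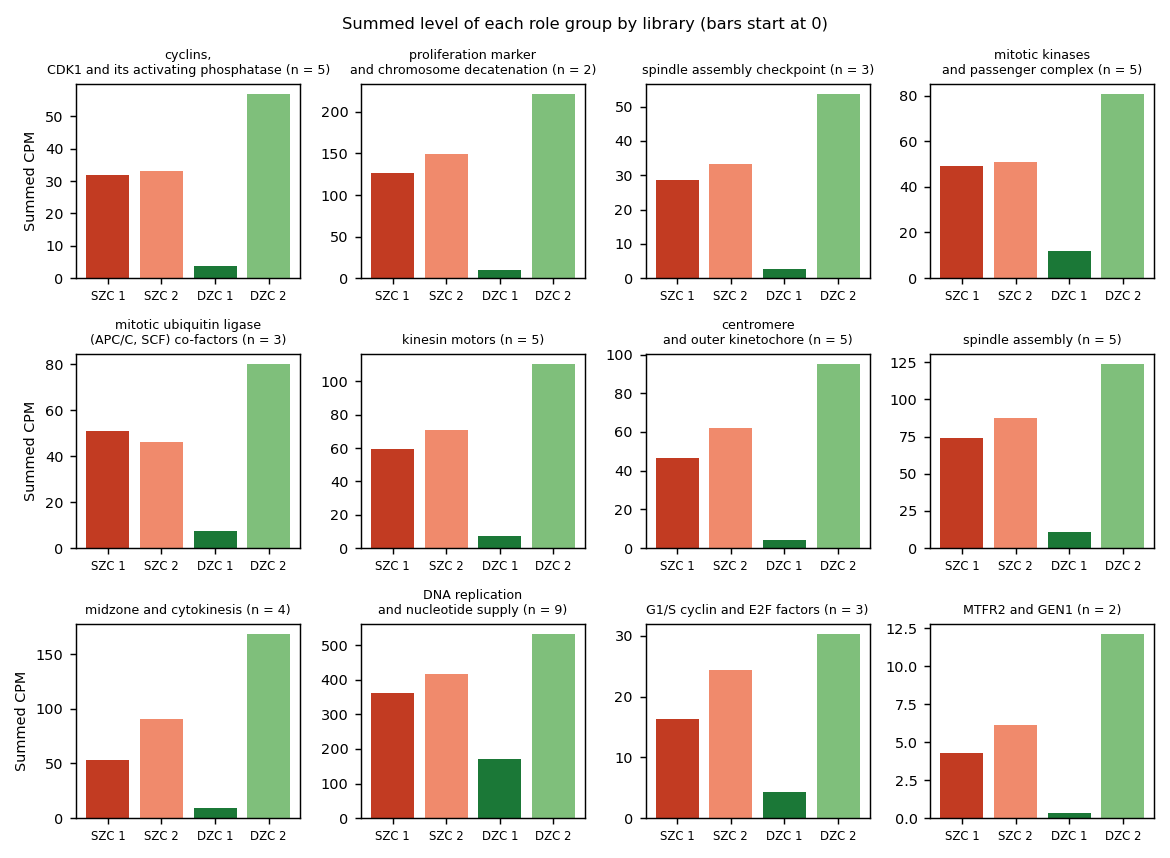
Summed level of the genes of each role in each library, in TMM-normalized CPM, with 1 bar per library, linear axes that start at 0 and a separate scale for each panel. DZC replicate 1 has the lowest bar and DZC replicate 2 the highest in all 12 panels, and the lowest bar comes closest to the others in DNA replication, at 171 against 362 to 534 CPM.

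Between the SZC libraries the folds of the members were smaller. This too is a description of 1 library against 1. Only ANLN was at least 2-fold lower in SZC replicate 1, at 2.13-fold, as were 5.38% of all genes tested, and no member was 2-fold lower in SZC replicate 2. No member was 4-fold lower in SZC replicate 1, as were 1.31% of all genes. The ratio of replicate 2 to replicate 1 had a median of 1.19 over the 51 genes and ranged from 0.725 for PLK1 to 2.13 for ANLN, while the median over all genes was 1.00. SZC replicate 2 was higher for 38 of the 51 genes and for 6429 of all 12857. The members that exceeded 1.5-fold were TTK, at 1.85, CCNE2, at 1.91, HMMR, at 1.75, RRM2, at 1.58, KIF11, at 1.52, and CENPE, at 1.5, besides ANLN. Over the 51 genes, the rank correlation of the fold between the DZC libraries with that between the SZC libraries was 0.27, given as a description because genes of the same libraries are not independent.

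**Figure D3:**
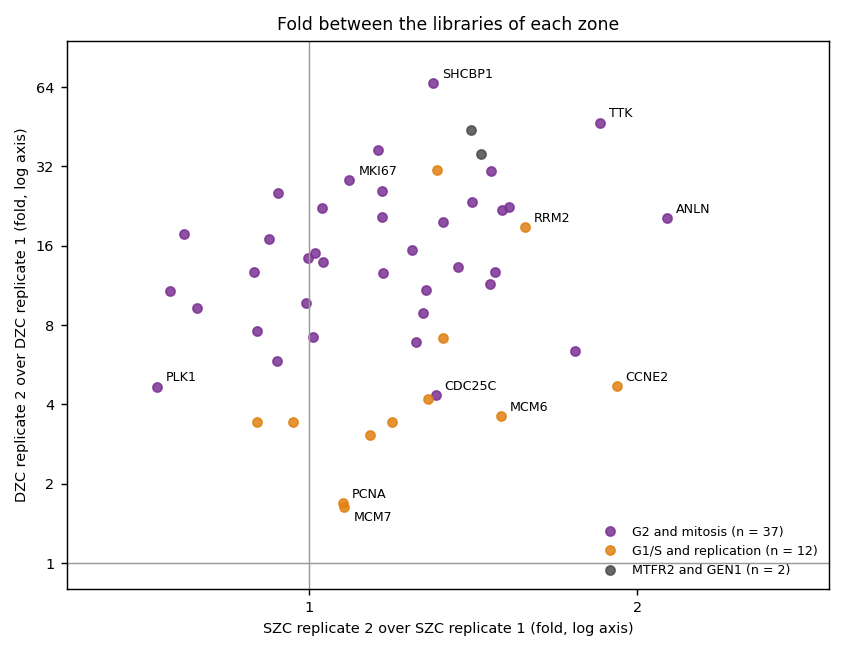
Fold of replicate 2 over replicate 1 in DZCs (vertical, log axis) against that in SZCs (horizontal, log axis) for the 51 genes, 1 point per gene, coloured by phase. The DZC folds run from 1.64 to 66.3 and the SZC folds from 0.725 to 2.13; MCM7 and PCNA lie lowest, and the DZC values of TTK and SHCBP1 chose the list.

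The comparison the study was designed for is that of SZCs with DZCs. By edgeR's exact test with Benjamini–Hochberg adjustment (FDR), none of the 49 genes tested differed between the zones at an FDR of 0.05, while 2.93% of all genes did. No member had an unadjusted p below 0.05 in that test, in edgeR's quasi-likelihood test or in DESeq2, while 9.09% of all genes did in the exact test. The log2 fold change of SZCs over DZCs ran from -1.10 for MTFR2 to 0.64 for NUSAP1, with a median of 0.20, against -0.04 over all genes tested, and was above 0 for 32 genes and below 0 for 19. With scaling by library totals alone, the median over all genes moved by 0.30 and 39 of the 51 genes lay above 0. For MKI67, the mean was 80.8 ± 4.88 CPM in SZCs and 66.7 ± 88 CPM in DZCs (SD, n = 2 libraries each). Its log2 fold change was 0.28 with a standard error of 1.18, an interval from -2.04 to 2.59, and the adjusted p of edgeR's exact test was 1. For PCNA, whose DZC libraries differed less, the log2 fold change was 0.31 with a standard error of 0.40, an interval from -0.47 to 1.09, and the adjusted p was 0.993 in the same test. For NUSAP1 these values were 0.64, 0.87 and 0.998, and for MTFR2 they were -1.10, 1.30 and 0.991. The intervals are wide, so the zones are not shown to be alike in these genes.

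The direction depended on which DZC library was in the fit. In the fits that leave out a DZC library, the remaining one is assumed to vary like the SZC pair, and these fits are given as descriptions because values of the DZC libraries entered the choice of the list. Without DZC replicate 1, all 51 log2 fold changes were below 0, with a median of -0.68, and 7 of the 49 genes were called higher in DZCs, against 2.51% of all genes. The 7 genes were MTFR2, with a log2 fold change of -2.05 and an adjusted p of 0.00469, UBE2C (-1.01 and 0.00845), ANLN (-1.48 and 0.00949), RRM2 (-1.21 and 0.0105), CENPE (-1.39 and 0.0115), KIF11 (-1.15 and 0.0230) and PRC1 (-1.0 and 0.0260), all from edgeR's exact test. Without DZC replicate 2, all 51 were above 0, with a median of 2.94, and 45 of the 49 genes were called higher in SZCs, against 12.9% of all genes. The 4 genes not called were PCNA, MCM7, CDC25C and CCNE2, with log2 fold changes of 0.76, 0.38, 1.56 and 1.47. MKI67 moved from -0.67 in the first of these fits to 4.17 in the second.

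**Figure D4:**
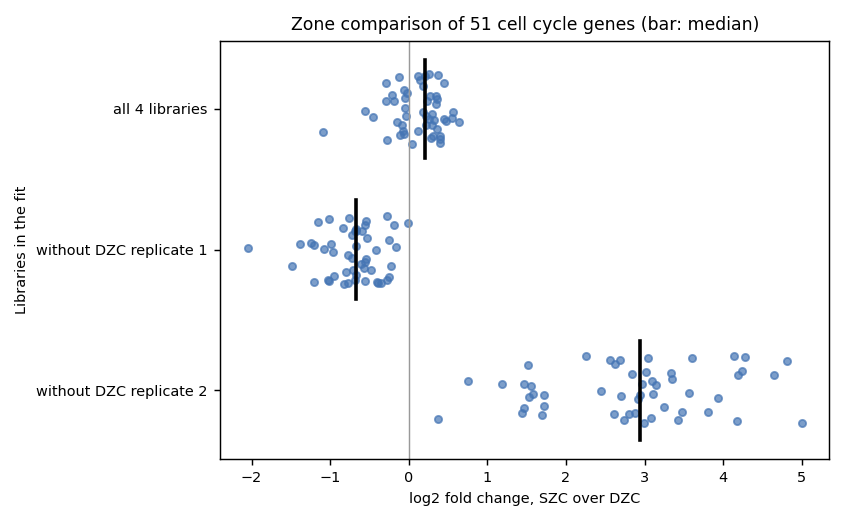
Log2 fold change of SZCs over DZCs for each of the 51 genes, TTK and SHCBP1 included, in the fit with all 4 libraries and in the fits without each DZC library; each point is a gene, the vertical bar is the median and the line marks 0. The medians are 0.20, -0.68 and 2.94, and the points lie on opposite sides of 0 in the fits without DZC replicate 1 and without DZC replicate 2.

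Other genes of the cell cycle were followed in 9 lists that hold 191 tested genes besides the 51. None was called between the zones, against 2.93% of all genes tested, and 2 had an unadjusted p below 0.05 in edgeR's exact test, against 9.09% of all genes. The median log2 fold change was 0.09, against -0.04 over all genes. CDK6, a kinase of G1 progression, had 4.18 and 5.77 CPM in the SZC libraries and 8.9 and 13.4 CPM in DZC replicates 1 and 2, a log2 fold change of -1.16 with a standard error of 0.51 and an adjusted p of 0.37 by edgeR's exact test. UBE2S, which extends ubiquitin chains for the anaphase-promoting complex, had 43.8, 43.6, 78.4 and 65.1 CPM, a log2 fold change of -0.72 with a standard error of 0.34 and an adjusted p of 0.442 in the same test. The gene with the smallest adjusted p in each other list had a log2 fold change of 0.68 for PDS5B of cohesin, -0.58 for ORC5 of the origin recognition complex, -0.47 for LIN52 of the MuvB core, -0.43 for KIF18B, a kinesin, 0.98 for FANCA of the Fanconi pathway, and 0.60 for SGO2, which protects centromeric cohesion. Among the CDK inhibitors, CDKN1A, p21, and CDKN2C, p18, shared the smallest adjusted p, 0.977 by edgeR's exact test, with log2 fold changes of -0.39 and 0.63. For some of these genes the size or direction also turned on the DZC library in the fit. Without DZC replicate 1 and without DZC replicate 2 in turn, the log2 fold change was -1.42 and -0.81 for CDK6, -0.57 and -0.82 for UBE2S, and 0.45 and 0.98 for PDS5B. In the same order it was 0.15 and 3.26 for FANCA, -0.02 and 1.74 for SGO2, and 0.10 and -0.73 for CDKN1A. It moved little for ORC5, at -0.56 and -0.57, for LIN52, at -0.41 and -0.50, and for KIF18B, at -0.43 and -0.40. Each of these fits holds 1 DZC library, so the values are descriptions.

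Between the DZC libraries, 105 of the 191 genes were at least 2-fold lower in replicate 1 and 1, LIN37 of the MuvB core, was at least 2-fold higher. Of all genes tested, 16.9% were at least 2-fold lower there and 7.65% at least 2-fold higher, and the median fold was 1.01, which are the values to set beside each list. The counts and medians varied between lists. Of the genes of spindle and cytokinesis, 26 of 29 were at least 2-fold lower, with a median fold of 9.08, and of the kinetochore and checkpoint genes, 21 of 32, with a median of 4.60. The figures were 13 of 17 and 4.69 for homologous recombination and Fanconi genes, 8 of 17 and 1.90 for condensin and cohesin, and 18 of 43 and 1.82 for origin licensing and the replication fork. They were 3 of 7 and 1.82 for the MuvB core with FOXM1 and MYBL2, 8 of 23 and 1.43 for the anaphase-promoting complex and its partners, 6 of 17 and 1.27 for G1 cyclins, CDKs and pocket proteins, and 2 of 6 and 1.14 for CDK inhibitors. FOXM1, an activator of mitotic genes, had 5.95 and 5.04 CPM in the SZC libraries, 0.373 CPM in DZC replicate 1 and 7.31 CPM in DZC replicate 2, and MYBL2, which acts with it, had 19.8, 21.7, 2.99 and 36.8 CPM. CCND1, cyclin D1, had 5.13, 8.88, 2.43 and 24.8 CPM. CDKN1A was highest in DZC replicate 1, with 135 and 129.6 CPM in the SZC libraries, 223 CPM in DZC replicate 1 and 123 CPM in DZC replicate 2. CDKN1C, the CDK inhibitor p57, had 29, 34.6, 50.9 and 26 CPM, and was also highest there. The other CDK inhibitors were not. CDKN2C had 18.3, 15.2, 4.35 and 17.2 CPM, CDKN3, a phosphatase that acts on CDK1 and CDK2, had 2.68, 2.76, 0.622 and 2.73 CPM, and CDKN2D, p19, had 8.31, 5.82, 4.67 and 6.41 CPM, so all 3 were lowest in DZC replicate 1. CDKN1B, p27, had 39.1, 41.7, 36.1 and 32.5 CPM, with DZC replicate 2 lowest. LIN37, FOXM1, MYBL2, CCND1 and all CDK inhibitors but CDKN1A and CDKN2C were named after their values were seen.

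**Figure D5:**
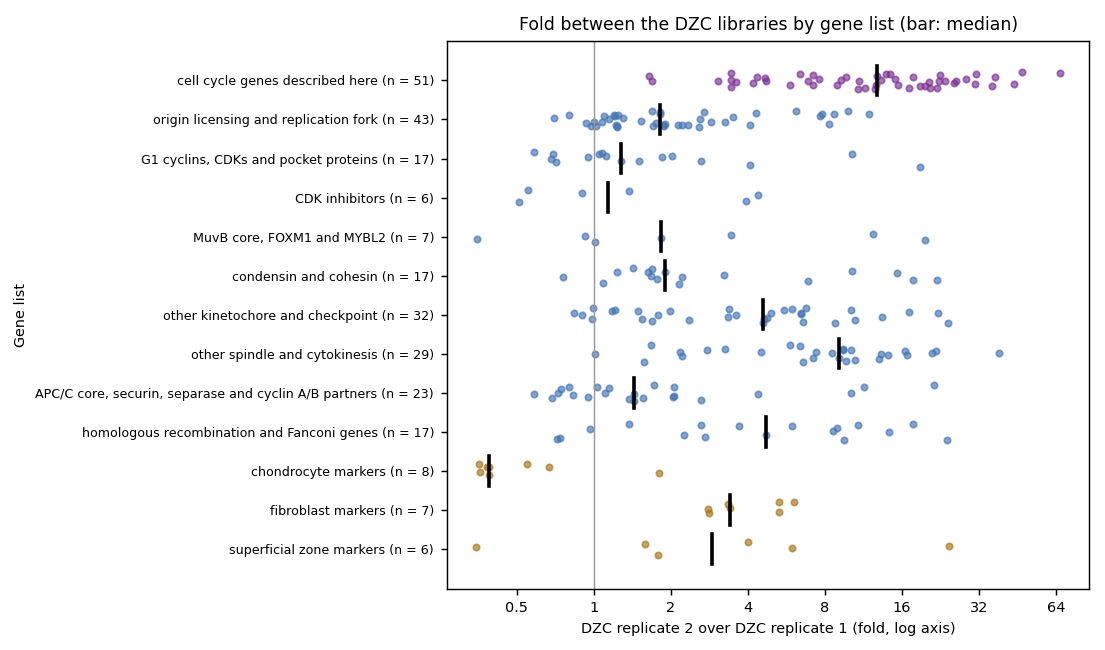
Fold of DZC replicate 2 over DZC replicate 1 (log axis) for each gene of the described set, of 9 lists of other cell cycle genes and of 3 marker lists; points are genes and bars are medians. E2F2 and DEPDC1B, at 0 in DZC replicate 1, count in the medians but are not drawn, and the medians run from 0.39 for chondrocyte markers to 12.8 for the described genes.

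The levels of several marker lists also set DZC replicate 1 apart, and their part in the result was not tested. The 8 chondrocyte markers summed to 120684 and 123310 CPM in the SZC libraries, 485946 CPM in DZC replicate 1 and 188467 CPM in DZC replicate 2. COL2A1 alone stood at 333205 CPM in DZC replicate 1. Of the 8, 5 were at least 2-fold higher in DZC replicate 1 than in DZC replicate 2, as were 7.65% of all genes tested. These were COL2A1, ACAN, SOX9, COL9A1 and COMP. MATN3, matrilin 3, was the only marker of the 8 called between the zones, and was higher in DZCs. The 7 fibroblast markers, among them COL1A1 and COL3A1, were all at least 2-fold lower in DZC replicate 1 than in DZC replicate 2. Their median fold was 3.41, and 16.9% of all genes tested were at least 2-fold lower there. They summed to 16527 and 24787 CPM in the SZC libraries, 3320 CPM in DZC replicate 1 and 13340 CPM in DZC replicate 2, the same order of the DZC libraries as the cell cycle genes, and none was called between the zones. The 6 superficial zone markers summed to 4801 and 3623 CPM in the SZC libraries and 77.9 and 165 CPM in DZC replicates 1 and 2.

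The 11 markers of hypertrophic and bone-forming cells summed to 115 and 113 CPM in the SZC libraries, 42.7 CPM in DZC replicate 1 and 291 CPM in DZC replicate 2. In 5 of them, COL10A1, MMP13, IBSP, ALPL and SP7, DZC replicate 2 was the library that stood apart, at 9.91, 21, 12, 19.9 and 6.28 CPM there. In the SZC libraries COL10A1 had 23 and 18 counts, MMP13 0 and 0, IBSP 1 and 2, ALPL 10 and 5, and SP7 2 and 8. In DZC replicate 1 the first 3 had 0 counts and ALPL and SP7 had 1 each. The other markers of this list did not share this pattern in full. PHOSPHO1 was lowest in DZC replicate 2, at 2.32, 5.77, 4.04 and 2.2 CPM, RUNX2 had 1.59, 3.66, 7.47 and 17.2 CPM, and BGLAP and DMP1 had at most 1 count in either DZC library. SPP1 made up most of the sum in DZC replicate 2, at 201 CPM, and had 108 and 102 CPM in the SZC libraries and 18.9 CPM in DZC replicate 1. IHH, a ligand of prehypertrophic chondrocytes, was the only one called higher in DZCs, with 12.1 and 2.15 CPM in DZC replicates 1 and 2. Markers of other lineages were low in all libraries. The 7 endothelial markers summed to 3.86 to 11.7 CPM, with CDH5, KDR and EMCN at 0 in DZC replicate 1 alone and CLDN5 at 0 in every library but SZC replicate 2, where it had 1 count. The 8 immune markers summed to 7.03 to 30.4 CPM, with PTPRC and CD79A at 0 in DZC replicate 1 and CD3E at 0 in SZC replicate 1 and DZC replicate 2. Among the red blood cell markers, HBB and SLC4A1 were at 0 in all 4 libraries. AHSP had 9 and 14 counts in the SZC libraries and 9 and 11 counts in DZC replicates 1 and 2. ALAS2 had 1 and 3 counts in the SZC libraries and 0 in both DZC libraries.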

How the data were processed

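RNA of cultured SZCs and DZCs was sequenced from a single end after amplification with a kit for small RNA amounts. Per the labels and the study's methods, the authors aligned reads with STAR 2.5.2b to Ensembl UMD 3.1, counted them per gene as unstranded, and deposited raw counts. A deposited table of the authors' zone comparison (log2 fold changes and FDR values) and the ATAC-Seq samples were not used.

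Libraries were grouped by their labels. The analysis used edgeR 4.0.16 (R 4.3.3) with TMM scaling, edgeR's default filter, the exact test with Benjamini–Hochberg adjustment over all 12857 genes and an FDR threshold of 0.05. The biological coefficient of variation was 0.361. The p-values set the difference between zones against a spread estimated from these libraries, with information shared over genes. Reads of overlapping antisense genes cannot be told apart in unstranded counts. No library was a duplicate of another: the chi-square per degree of freedom between libraries was 65.6 for SZCs and 313 for DZCs. Levels are not compared between genes, since gene lengths were not used here. Amplified reads are not independent molecules.

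The members and lists were chosen with earlier results of these data known. All 52 genes could be named, as could, in each list, the gene with the smallest FDR. In each role group, the genes with the widest and narrowest fold between DZC libraries were given in full. 1 marker gene is not reported here. Not found in the table were CDKN2A, CDKN2B, KNL1, INCENP, ARHGAP11A and HBA. Alternatives were the quasi-likelihood test, DESeq2 1.42.0, other scalings and filters, the replicate number as a block, and each library left out in turn. The scripts were tested on simulated data.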

Additional observations from a re-analysis of the deposited data

How the results depend on the processing

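No member was called between the zones under any alternative that kept all 4 libraries, and without each library in turn the count ranged from 0 to 45, the highest without DZC replicate 2 and 7 without DZC replicate 1. For the 191 tested genes in the 9 lists of other cell cycle genes the count ranged from 0 to 82, the highest also without DZC replicate 2. That fit holds 1 DZC library and called 2768 of all 12857 genes, so its counts are descriptions. The median log2 fold change of the members ranged from -0.68 to 2.94 as libraries were left out, and that of MTFR2 from -2.05 to 3.09, with its direction reversed without DZC replicate 2. Over all genes, 377 were called, 287 of them higher in SZCs. As libraries were left out these counts ranged from 68 to 2768 and from 62 to 1656. The quasi-likelihood test called 0 genes in all and 0 higher in SZCs, with 1126 at an unadjusted p below 0.05, while DESeq2 called 397. The cause was not tested. With library totals alone, 86.7% of the calls were higher in SZCs, against 76.1%. That scaling moved the median fold of DZC replicate 2 over replicate 1 from 12.8 to 18.8, moved that of all genes from 1.01 to 1.5, put all 51 members and 32.2% of all genes at least 2-fold lower in DZC replicate 1, moved the median fold between the SZC libraries from 1.19 to 1.22 (over all genes from 1.00 to 1.03) and raised the mean summed level in SZCs from 986 to 1107 CPM. At a 4-fold bound, 44 members and 6.14% of all genes were lower in DZC replicate 1, and 0 members and 1.31% of all genes in SZC replicate 1.

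The zones share replicate numbers, but no label says that a number marks a shared joint, and there are only 2 pairs. Deviations from the zone mean correlated between libraries of the same number at 0.42 over all genes and 0.25 over the members. Blocking on the replicate number, the quasi-likelihood test called 347 genes and 0 members, and the median log2 fold change of the members was 0.84, with 49 of 51 above 0, and that of MKI67 was 1.63, against 0.28. Low counts limit the members in DZC replicate 1, where 36 had fewer than 50 counts. Its total was the highest of the 4 libraries, but its TMM factor was the lowest, at 0.735. There 3 counts stood at 0.187 CPM, against 0.129 to 0.136 CPM in the other libraries. The planned search of promoters for motifs, and its other window, was not run, because promoter sequences were not used here.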
